A study of Mus musculus with 7 samples.

Results

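Transcripts of collagen and laminin chain genes in libraries of sorted microglia were compared between old and young male mice after brain ischemia. Genes listed under a Col symbol with a chain number, or under Lama, Lamb or Lamc, were taken, and 55 of the 50686 listed genes had such a symbol. The 44 members, 34 collagen and 10 laminin chains, were those whose expected count exceeded 10 in at least 1 of 7 libraries, and this gene group was taken up with earlier results of these data known. Microglia were sorted as CD11b+, CD45low and Bodipy+ cells from the forebrain of C57BL/6 males, 4 days after a 45 min occlusion of the middle cerebral artery. Bodipy is a dye for neutral lipid, so lipid droplet-rich cells were taken in both ages. The Young group held 4 mice of 3 to 4 months (14C, 18C, 23C and 29C) and the Old group 3 mice of 21 to 22 months (2posI, 3posI and 4posI), with 1 mouse per library. The labels name no drug or engineered allele, and every mouse had been made ischemic, so the comparison is of age within ischemia. Libraries were made by Smart-seq2 from low RNA input and were non-stranded.

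Collagens are proteins of 3 chains wound around each other, most of them secreted and some transmembrane. Fibrillar collagens form the banded fibers of connective tissue, collagen IV forms the sheet of the basement membrane, and collagen VI forms fine beaded filaments next to it. Laminins are trimers of an alpha, a beta and a gamma chain, which lay down the basement membrane and bind receptors on cells. In brain most of these chains are known from fibroblasts, pericytes, endothelial cells and astrocyte endfeet around vessels, and resting microglia are not known as a main source.

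Collagen chains share a repeat of triplets that start with glycine, encoded by codons that begin with GG. In the longest complete coding sequence of each member, taken from GENCODE vM21, the longest unbroken run of such triplets was between 30 and 344 in the 34 collagens, with a median of 60.5, and between 2 and 3 in the 10 laminins. To show what the symbol rule picks up, the first codons of the longest run are given 5′ to 3′ for Col1a1 (codons 168 to 188), the major chain of collagen I, and for Col27a1 (codons 673 to 693), the chain with the highest level per length, with the repeating glycine codons in capitals.
Col1a1: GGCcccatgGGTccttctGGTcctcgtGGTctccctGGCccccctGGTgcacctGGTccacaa
Col27a1: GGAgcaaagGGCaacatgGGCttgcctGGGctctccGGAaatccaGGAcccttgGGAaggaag

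Upstream sequence was available in RefSeq tables (GRCm38.p6) for 32 of the 44 members, in 34 windows of 250 bases before an annotated start. The windows of Col1a2 and Col3a1, fibrillar chains that were highest in the same library of each age, and of Col27a1, a fibrillar chain that was lowest there, are shown with CCAAT boxes (CCAAT or ATTGG), TATA boxes (TATAAA or TTTATA) and GC boxes (GGGCGG or CCGCCC) in capitals.
Col1a2, chr6:4505368-4505617, plus strand: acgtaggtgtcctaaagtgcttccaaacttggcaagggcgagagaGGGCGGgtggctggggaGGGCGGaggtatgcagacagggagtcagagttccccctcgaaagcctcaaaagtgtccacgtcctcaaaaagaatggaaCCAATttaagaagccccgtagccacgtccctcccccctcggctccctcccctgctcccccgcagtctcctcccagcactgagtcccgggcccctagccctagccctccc
Col3a1, chr1:45311288-45311537, plus strand: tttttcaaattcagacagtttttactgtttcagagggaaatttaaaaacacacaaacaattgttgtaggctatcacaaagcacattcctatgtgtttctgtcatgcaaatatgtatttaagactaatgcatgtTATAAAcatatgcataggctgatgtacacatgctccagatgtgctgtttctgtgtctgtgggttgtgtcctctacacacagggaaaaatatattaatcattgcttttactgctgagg
Col27a1, chr4:63215162-63215411, plus strand: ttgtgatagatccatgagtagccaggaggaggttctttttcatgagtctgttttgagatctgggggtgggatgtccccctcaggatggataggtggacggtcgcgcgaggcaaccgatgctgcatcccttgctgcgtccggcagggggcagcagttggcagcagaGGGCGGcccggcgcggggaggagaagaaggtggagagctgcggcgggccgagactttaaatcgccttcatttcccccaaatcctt
Col1a2 held 2 GC boxes, 205 and 188 bases before the start, and 1 CCAAT box at 109 bases. Col3a1 held only a TATA box, 117 bases before the start, and Col27a1 only a GC box at 85 bases. A GC box was found in 64.7% of the member windows and in 32.7% of all 32851 windows, whose median GC content was 60.6% and 52.4%. CCAAT boxes were in 32.4% of member windows and 33.8% of all, and TATA boxes in 11.8% and 12.4%. The motifs were searched on both strands, no 2 of the matches shown overlap, and a match is a description of the sequence only.

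Total expected counts were between 36574044 and 53002356 per library, and values are given as TMM-scaled CPM, which are counts scaled to library size (CPM) with edgeR's trimmed mean of M values. At these depths 3 counts correspond to between 0.0588 and 0.0894 CPM, a level that covers counting error only. Genes defining microglia were abundant in all libraries, with summed levels of 20665 to 30714 CPM over 10 markers in Young and 10767 to 24441 CPM in Old. A pair of libraries stood apart. Young 23C had the highest sum of 12 fibroblast markers (98.7 CPM, against 16.2 to 27.5 CPM in the other Young libraries), and Old 3posI had the lowest microglia sum and a summed level of 12 leukocyte markers of 579 CPM, against 8.61 to 104 CPM elsewhere. The main results are therefore given with and without them. In bulk libraries such as these, fewer cells of a type and less RNA per cell cannot be told apart.

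Of the 42 members on autosomes, which were tested with all 17559 genes that passed the same count minimum, 33 had a lower fitted level in Old and 9 a higher level. Over all genes tested 51.2% were lower. The median difference in fitted log2 level, Old minus Young (log2 difference), was -1.21 for the members and -0.01 for all genes. No member passed an adjusted p of 0.05 in either direction by the quasi-likelihood test of edgeR (Benjamini-Hochberg adjustment over all genes), where 0.233% of all genes passed as lower and 0.57% as higher. At an unadjusted p under 0.05 there were 10 members lower in Old, beside 8.79% of all genes, and 2 higher in Old, beside 10.1% of all genes. DESeq2 called 2 members lower, Lama5 and Col6a1 (3.73% of all genes), and 1 higher, Col6a3 (4.26% of all genes), and limma-voom called 0. The ages did not overlap for 6 members lower in Old, against 9.07% of all genes, and for 1 higher in Old, Col6a3, against 8.67% of all genes. The 6, taken on the CPM scale, were Col1a1, Col18a1, Col6a1, Col9a2, Lama5 and Lamc3. Per length Lama5 overlapped, and Col9a2 was at 0.18 TPM in both Young 29C and Old 3posI.

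**Figure D1:**
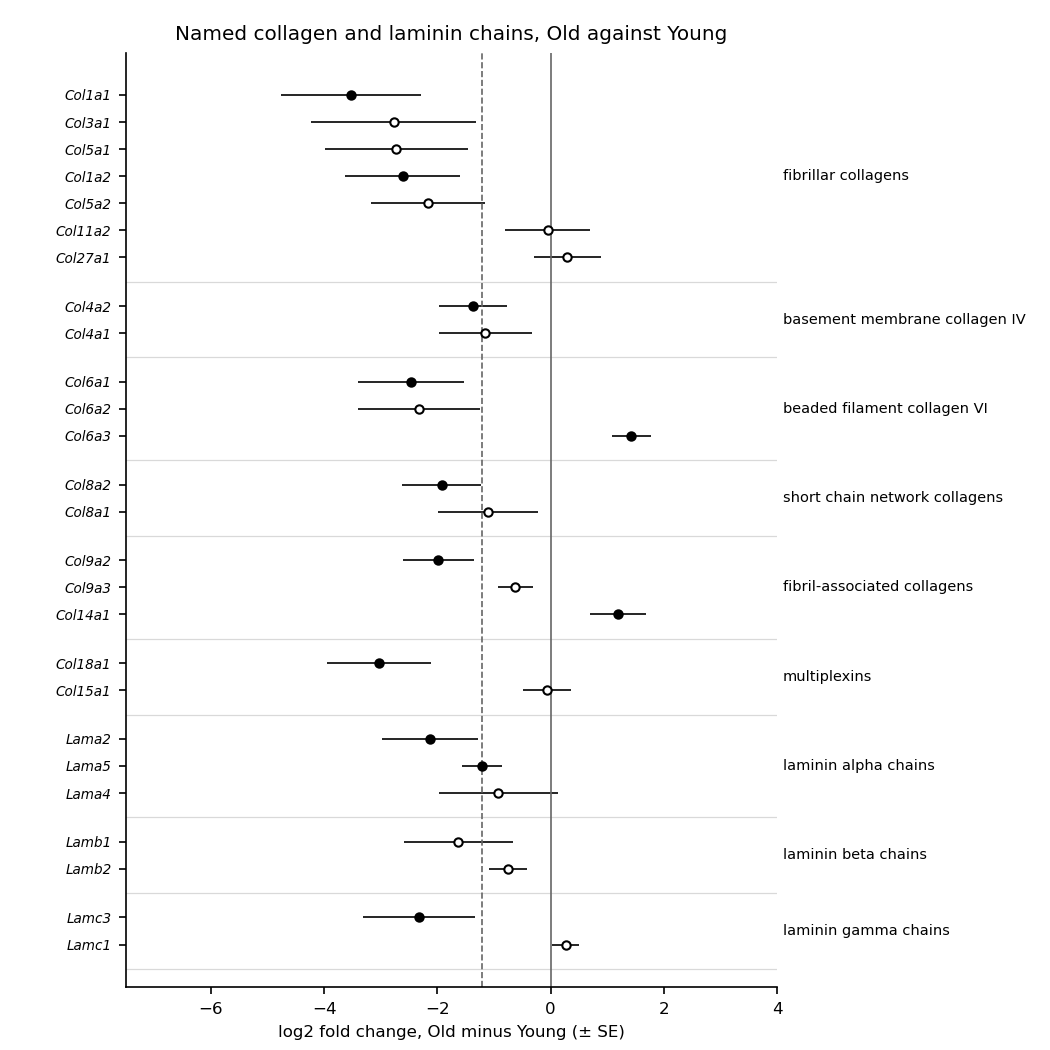
Log2 difference, Old minus Young, with its standard error for the 26 chains named by level or p, grouped by class. Filled points have an unadjusted p under 0.05, the solid line is 0 and the dashed line the median of the 42 tested chains at -1.21. Col1a1, Col18a1, Col3a1 and Col5a1 lie farthest to the left, and Col6a3 and Col14a1 are the filled points to the right.

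The count minimum itself bears on these counts. There were 10 members above it in Young libraries only, Col9a2 and Lama2 among them, and 0 in Old libraries only, so such members entered through a Young library alone. Of the 34 members above the minimum in both ages, 26 were lower in Old and the median log2 difference was -1.18. Of these 34, 8 were lower and 2 higher at an unadjusted p under 0.05, and the ages did not overlap for 5 lower and 1 higher. Just inside the minimum were Col4a6 and Col6a6, with highest expected counts of 12 and 13, and just outside were Col22a1 and Col2a1, at 10. Below it were 11 listed chains, of which Col19a1, Col28a1, Col6a5 and Col9a1 had no count in any library and Col17a1, Col24a1, Col26a1, Col6a4 and Lamb3 had at most 9.

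A single Young library held the highest level of most chains. Young 23C was highest for 29 of the 44 members, while 15.4% of all tested genes were highest there. Another 7 members were highest in another Young library and 8 in an Old library, 5 of them in 3posI. The lowest level was in an Old library for 29 members, against 51.6% of all tested genes. Summed over the 34 collagens, the level was 130, 105, 321 and 85.3 CPM in 14C, 18C, 23C and 29C, and 82.8, 82.3 and 82.7 CPM in 2posI, 3posI and 4posI. In CPM the Old sums were all below the Young sums, though close to the 29C sum, and alike in total while made up of different chains. Per length the collagen sums overlapped, at 45.83, 41.27, 97.29 and 30.44 TPM in Young and 33.09, 29.28 and 37.85 TPM in Old. The 10 laminins summed to 45.3, 41.9, 59.2 and 45.2 CPM in Young and 31.4, 34.7 and 39.8 CPM in Old.

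Of the 9 fibrillar chains tested 8 were lower in Old, with a median log2 difference of -2.16. Among these 8, Col11a1 passed the count minimum through Young libraries only, and Col11a2 had a log2 difference of only -0.05. The chains of the main fibers, collagens I and III, were at 5.08 CPM or more in every Young library and at 1.19 CPM or less in 2 of the 3 Old libraries. Col1a1, the major chain of collagen I (chromosome 11, 94936224 to 94953042, plus strand, GRCm38), measured 24.3, 9.73, 94.2 and 14.6 CPM in Young and 0.149, 8.15 and 0.993 CPM in Old. The ages did not overlap, although Old 3posI came near the lowest Young library. The group means were 35.7 ± 39.4 CPM (SD, n = 4) and 3.10 ± 4.4 CPM (SD, n = 3), and the log2 difference was -3.52 ± 1.24 (SE, edgeR adjusted p = 0.181).

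Col1a2, the partner chain that joins Col1a1 in the collagen I trimer (chromosome 6, 4504814 to 4541544), measured 11.4, 6.06, 50.4 and 6.54 CPM in Young and 0.864, 7.05 and 1.19 CPM in Old. Only Old 3posI reached the range of the Young libraries. Its log2 difference was -2.61 ± 1.01 (SE, edgeR adjusted p = 0.214). Per length, the ratio of Col1a1 to Col1a2 in TPM was 2.29, 1.92, 1.85 and 2.03 in Young, and 0.125, 1.05 and 0.6 in Old, where Col1a1 rested on 5, 319 and 46 counts.

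Col3a1, the single chain of collagen III, which is found with collagen I in vessel walls, measured 11.5, 5.08, 63.0 and 7.31 CPM in Young. In Old it had no count in 2posI, 9.0 CPM in 3posI and 0.518 CPM in 4posI. With a standard error of 1.45, its log2 difference of -2.77 had an unadjusted p of 0.0901 and an adjusted p of 0.34 by edgeR. Non-whole expected counts were present for Col3a1 in 4 libraries, as RSEM divides reads that map to several genes.

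Chains of collagens V and XI are built into the same fibers and limit their width. Their mean levels were below those of collagens I and III in both ages, though not in every Old library. Col5a1 measured between 0.179 and 2.78 CPM in Young, with no count in 2posI, 0.460 CPM in 3posI and 0.0432 CPM in 4posI, and Col5a2 measured 2.53, 1.01, 6.92 and 0.946 CPM in Young and 0.298, 1.51 and 0.108 CPM in Old. Their log2 differences were -2.72 ± 1.27 and -2.16 ± 1.00 (SE), with adjusted p of 0.29 and 0.289 by edgeR. Col5a3, the partner of both, had a mean of 0.603 CPM in Young and 0.262 CPM in Old, and Col11a2 did not separate the ages at 1.04 ± 0.542 and 1.00 ± 0.755 CPM.

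Col27a1, a fibrillar chain known from cartilage, differed from the others in its class. It measured 29.1, 47.1, 8.75 and 21.4 CPM in Young and 43.3, 10.6 and 44.0 CPM in Old, and so was lowest in the very libraries, 23C and 3posI, that were highest in their age for Col1a1, Col1a2 and Col3a1. The log2 difference was 0.29 ± 0.59 (SE, edgeR adjusted p = 0.823), and the ages overlapped over their whole range. It was the collagen with the highest median level per length in both ages, 10.6 TPM in Young and 17.1 TPM in Old, and took 3.62% to 47.3% of the summed collagen TPM in Young and 13.8% to 51.7% in Old. Col1a1, Col1a2 and Col3a1 together took 61.2% in 23C and 16.3% to 31.5% in the other Young libraries, against 0.816%, 26.5% and 2.77% in 2posI, 3posI and 4posI. Without Col27a1 the fibrillar chains summed to between 23.7 and 221 CPM in Young and to 1.97, 28.4 and 4.1 CPM in Old, a sum chosen after the values were seen.

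**Figure D2:**
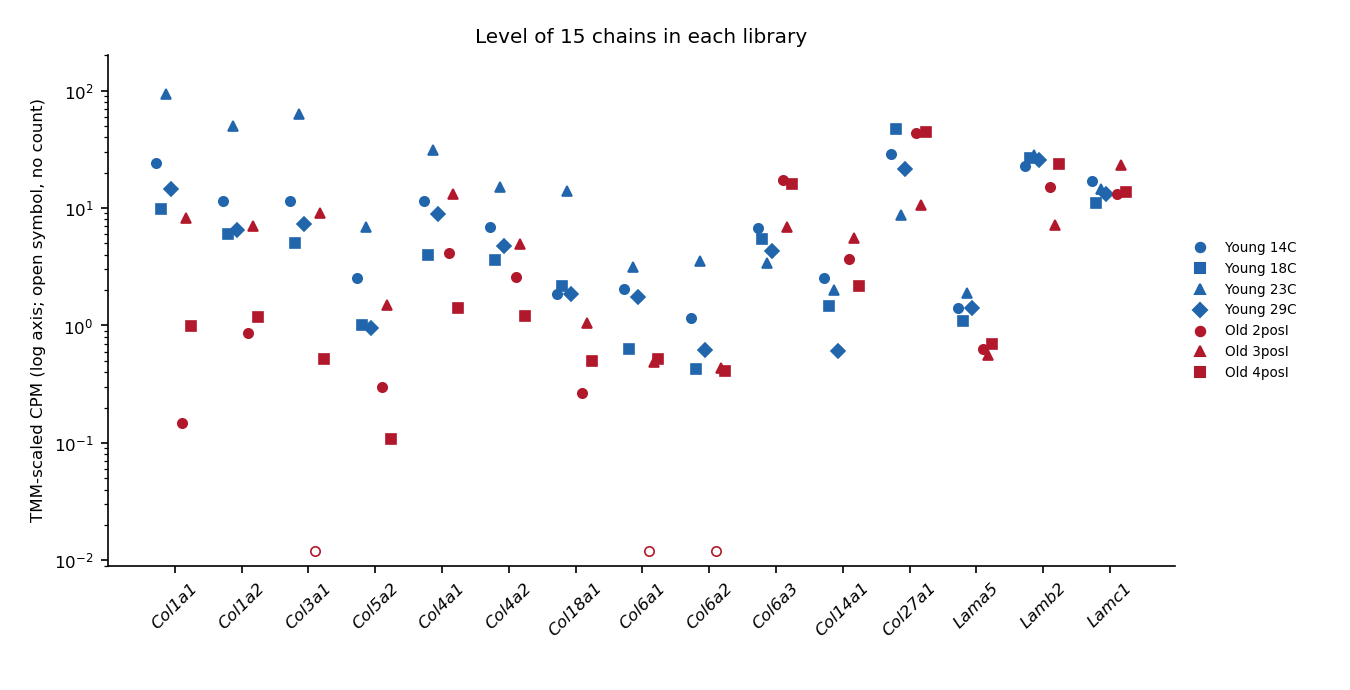
TMM-scaled CPM of 15 chains in each library on a log axis, Young in blue and Old in red, with open symbols where a library had no count. Young 23C (blue triangle) is the highest point for Col1a1, Col1a2, Col3a1, Col4a1 and Col18a1 and the lowest of its age for Col27a1 and Col6a3, and Old 3posI (red triangle) is the highest Old point for the same chains and the lowest Old point for Col27a1 and Col6a3.

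The ages overlapped for every chain of collagen IV, the collagen of basement membranes. Its main chains Col4a1 and Col4a2 are encoded head to head on chromosome 8, with annotated starts at 11312826 and 11312805 on opposite strands and 22 shared exon bases, so that reads within them cannot be assigned by strand in these non-stranded libraries. Col4a1 measured 11.5, 4.00, 31.1 and 8.97 CPM in Young and 4.11, 13.2 and 1.40 CPM in Old. Col4a2 measured 6.86, 3.6, 15 and 4.73 CPM in Young and 2.59, 4.96 and 1.21 CPM in Old. Both chains were highest in 23C and lowest in 4posI. Their log2 differences were -1.16 ± 0.82 and -1.37 ± 0.60 (SE), with adjusted p of 0.478 and 0.262 by edgeR. That of Col4a1 was -0.39 without 23C, -0.68 without 4posI and -2.35 without 3posI, and that of Col4a2 -0.80 without 23C. The ratio of Col4a1 to Col4a2 in TPM was between 2.19 and 3.25 in Young and 1.79 and 6.37 in Old. Of the minor chains, Col4a3 and Col4a4, also head to head, stayed at or under 0.477 CPM in every library, and Col4a5 and Col4a6 on X, fitted with X kept, at or under 0.804 CPM.

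Collagen VI was split between its chains. Col6a1 and Col6a2, neighbors on chromosome 10 whose chains join Col6a3 in a trimer, were lower in Old, while Col6a3 was higher. Col6a1 measured 2.04, 0.626, 3.12 and 1.76 CPM in Young and 0, 0.486 and 0.518 CPM in Old, without overlap, and its log2 difference was -2.46 ± 0.94 (SE, edgeR adjusted p = 0.21). Col6a2 measured 1.17, 0.425, 3.55 and 0.624 CPM in Young and 0, 0.434 and 0.410 CPM in Old, with an adjusted p of 0.285 by edgeR. The only count of 0 for both was in Old 2posI.

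Col6a3 (chromosome 1, 90765923 to 90843971, minus strand) measured 6.82, 5.48, 3.39 and 4.28 CPM in Young and 17.4, 6.85 and 16.1 CPM in Old. Old 3posI exceeded Young 14C by little, and with upper-quartile factors the ages overlapped. The means were 4.99 ± 1.49 CPM (SD, n = 4) and 13.5 ± 5.75 CPM (SD, n = 3), and the log2 difference was 1.43 ± 0.35 (SE, unadjusted p = 0.00311, adjusted p = 0.0966 by edgeR), the smallest adjusted p of the members. With DESeq2 its adjusted p was 0.00351. Its share of the summed collagen TPM was 1.09% to 5.99% in Young and 21.3%, 6.56% and 20.3% in 2posI, 3posI and 4posI. The ratio of Col6a3 to Col6a1 in TPM, 3.44, 11.2, 0.973 and 2.16 in Young, was 12.8 in 3posI and 42.7 in 4posI, and could not be formed in 2posI. The mean transcript length that RSEM assigned to Col6a3 was between 3040 and 4604 bases, shorter in every library than its longest coding sequence of 3284 codons.

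Among the fibril-associated collagens, which attach to fibers without forming them, the chains went in different directions. Col14a1 measured 2.53, 1.48, 2.00 and 0.602 CPM in Young and 3.67, 5.55 and 2.16 CPM in Old, with a log2 difference of 1.19 ± 0.49 (SE, unadjusted p = 0.0400, adjusted p = 0.24 by edgeR). Its difference was 0.81 without 3posI, its highest library (unadjusted p = 0.159 by edgeR), and 0.92 without both 23C and 3posI (unadjusted p = 0.147). Col9a2 measured between 0.333 and 0.716 CPM in Young and between 0.0596 and 0.179 CPM in Old, where it rested on 2 to 7 counts (log2 difference -1.98 ± 0.62 SE, adjusted p = 0.151 by edgeR). Col9a3, its partner in the collagen IX trimer, measured 2.43 to 3.45 CPM in Young and 1.22 to 2.5 CPM in Old, and overlapped (adjusted p = 0.316 by edgeR), while the remaining partner Col9a1 had no count.

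The multiplexins, whose C-terminal parts are released as endostatin-like fragments, were also unlike each other. Col18a1, a heparan sulfate-bearing chain of vessel basement membranes (chromosome 10, 77052178 to 77166548, minus strand), measured 1.86, 2.15, 13.9 and 1.87 CPM in Young and 0.268, 1.05 and 0.497 CPM in Old, without overlap. Its log2 difference was -3.02 ± 0.92 (SE, unadjusted p = 0.00988, adjusted p = 0.142 by edgeR) and -1.69 without 23C, and DESeq2 gave no adjusted p. Col15a1 measured 3.14 to 7.03 CPM in Young and 1.94 to 6.24 CPM in Old, with a log2 difference of -0.06 ± 0.42 (SE) whose sign turned under 5 alternatives.

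The short chain collagens of vessel walls, Col8a1 and Col8a2, form a hexagonal network. Col8a2 measured 1.80, 0.626, 0.981 and 0.323 CPM in Young and 0.149, 0.409 and 0.173 CPM in Old, with an unadjusted p of 0.0234 and an adjusted p of 0.192 by edgeR. Col8a1 had means of 1.43 ± 0.859 CPM in Young and 0.658 ± 0.695 CPM in Old, and overlapped.

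Laminin was dominated by Lamb2 and Lamc1, the beta 2 and gamma 1 chains, which together made 69.8% to 90.8% of the summed laminin TPM in Young and 83.9% to 95.0% in Old. Lamb2 (chromosome 9, 108479736 to 108490530, plus strand) measured 22.9, 26.7, 28.3 and 25.5 CPM in Young and 15, 7.16 and 23.9 CPM in Old. The Young libraries were close to each other, and Old 4posI lay within them. The log2 difference was -0.75 ± 0.34 (SE, unadjusted p = 0.0552, adjusted p = 0.275 by edgeR), and it was -0.41 without 3posI and -1.23 without 4posI. Lamc1 (chromosome 1, 153218922 to 153332786, minus strand) measured 16.9, 11.1, 14.5 and 13.2 CPM in Young and 13.1, 23.4 and 13.8 CPM in Old, with a log2 difference of 0.27 ± 0.24 (SE), which was -0.05 without 3posI. Per length, the ratio of Lamb2 to Lamc1 in TPM was 2.39, 4.55, 3.01 and 2.89 in Young and 1.12, 0.309 and 1.76 in Old, without overlap, a ratio looked at with no test. Lamb1, the other beta chain, measured 1.54, 0.694, 6.02 and 3.01 CPM in Young and 1.07, 1.61 and 0.0648 CPM in Old.

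The alpha chains, which carry the receptor-binding end of a laminin, were all lower in fitted level in Old. Of these, Lama1 and Lama2 passed the count minimum through Young libraries only. Lama3 had a log2 difference of -0.50 (unadjusted p = 0.416 by edgeR), which was -0.05 without 23C. Lama5, the alpha 5 chain of mature vessel basement membranes (chromosome 2, 180176373 to 180225859, minus strand), measured 1.41, 1.10, 1.90 and 1.42 CPM in Young and 0.626, 0.562 and 0.691 CPM in Old. On the CPM scale the ages did not overlap. Per length they did, at 0.67, 0.63, 0.70 and 0.84 TPM in Young and 0.27, 0.65 and 0.20 TPM in Old, where 3posI lay within the Young range. Its log2 difference was -1.21 ± 0.35 (SE, unadjusted p = 0.00747, adjusted p = 0.131 by edgeR, adjusted p = 0.0225 by DESeq2), and it was between -1.32 and -1.06 with any single library left out. It rested on 21 to 97 counts per library, and was -0.88 with the effective-length offset.

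Lama2, an alpha chain known from muscle and perivascular laminin, measured 0.217, 0.515, 0.726 and 0.645 CPM in Young and 0.268, 0.0767 and 0.0216 CPM in Old, with a log2 difference of -2.13 ± 0.85 (SE, edgeR adjusted p = 0.222). Lama4, the alpha chain of early endothelial laminin, measured between 0.0447 and 2.96 CPM in Young and 0.238 and 0.92 CPM in Old, and the sign of its difference turned without 23C. Lamc3, a minor gamma chain, measured 0.498, 0.492, 1.73 and 0.581 CPM in Young and 0, 0.102 and 0.367 CPM in Old, without overlap (log2 difference -2.33 ± 0.99 SE, adjusted p = 0.253 by edgeR), and 6.27% of its exon bases are shared with another annotated gene. The 18 members not named by level or p, with Col5a3 among them, had means under 1 CPM in both ages. Their log2 differences were between -2.55 (Lama1) and 1.18 (Col4a4), with unadjusted p no smaller than 0.0531 (Col7a1) by edgeR.

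**Figure D3:**
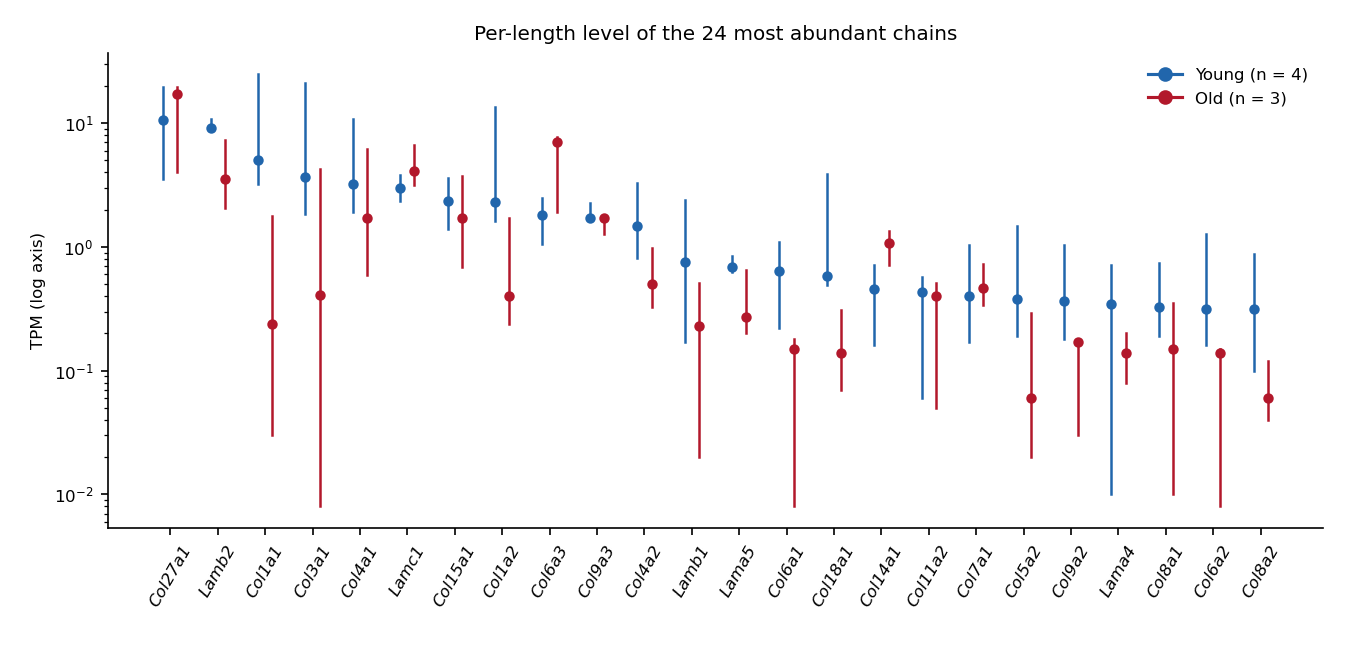
Deposited TPM of the 24 chains with the highest Young median on a log axis, where points are medians and lines run from the lowest to the highest library (Young, n = 4; Old, n = 3), and a line that reaches the lowest point drawn holds a library listed at 0. Col27a1 leads in both ages, Lamb2 and Col1a1 come next in Young and Col6a3 and Lamc1 in Old, and the Young lines of neighboring chains overlap.

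In order of median TPM the leading chains in Young were Col27a1 (10.6), Lamb2 (9.12), Col1a1 (5.06), Col3a1 (3.65), Col4a1 (3.21) and Lamc1 (3.01). In Old they were Col27a1 (17.1), Col6a3 (7.06), Lamc1 (4.13), Lamb2 (3.54), Col15a1 (1.72) and, level with each other, Col4a1 and Col9a3 (1.70). Neighbors in either of these orders overlapped in the ranges of their libraries. Col1a1 stood at place 16 and Col3a1 at place 11 in Old, and Col6a3 at place 9 in Young.

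The differences of collagens I and III were smaller without 23C, the library where they were highest. Col1a1 was then -2.38 (edgeR adjusted p = 0.299), Col1a2 -1.39 (adjusted p = 0.371) and Col3a1 -1.32 (adjusted p = 0.63). Without 3posI, the Old library where they were highest, Col1a1 was -5.87 (edgeR adjusted p = 0.0753), Col1a2 -4.16 (adjusted p = 0.106) and Col3a1 -6.23 (adjusted p = 0.0995). Other log2 differences also moved by over 1.5 times. Without 23C, Col5a1 was -1.75, Col5a2 -1.23, Col6a2 -1.36, Col8a1 -0.61 and Lamb1 -0.94. Without 3posI, Col5a1 was -5.39, Col5a2 -3.84 and Col8a1 -2.26. Lama2 was -3.38, Col8a1 -0.56 and Col9a3 -0.38 without 2posI, Lamc3 -3.88 without 4posI and Lamb1 -1.07 without 4posI. Col27a1 lay between 0.00 and 0.73 with a library left out.

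Both libraries were also left out together, an alternative chosen after the values were seen, which takes away the highest library of each age for these fibrillar chains. The median log2 difference of the members was then -0.97 and 31 of 42 were lower in Old. By edgeR's quasi-likelihood test Col1a1 (log2 difference -4.74, adjusted p = 0.0333) and Col1a2 (-2.95, adjusted p = 0.0284) passed as lower, where 0.33% of all genes did, and Col6a3 (1.60, adjusted p = 0.0299) as higher, where 0.632% of all genes did. The ages then did not overlap for 18 members lower in Old, against 19.4% of all genes, and for 2 higher in Old, against 17.7% of all genes. Col3a1 had a log2 difference of -4.81 with an adjusted p of 0.0596. Leaving out 23C alone brought the median to -0.70. The members lower at an unadjusted p under 0.05 were then 4, beside 8.33% of all genes. At that level 6 were lower without 14C, without 2posI or without 4posI, beside 6.1%, 6.43% and 10.8% of all genes. Leaving out 3posI alone brought the median to -1.74 and the members lower to 17, beside 9.44% of all genes. Col6a3 was then past the adjusted threshold (adjusted p = 0.0324 by edgeR).

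**Figure D4:**
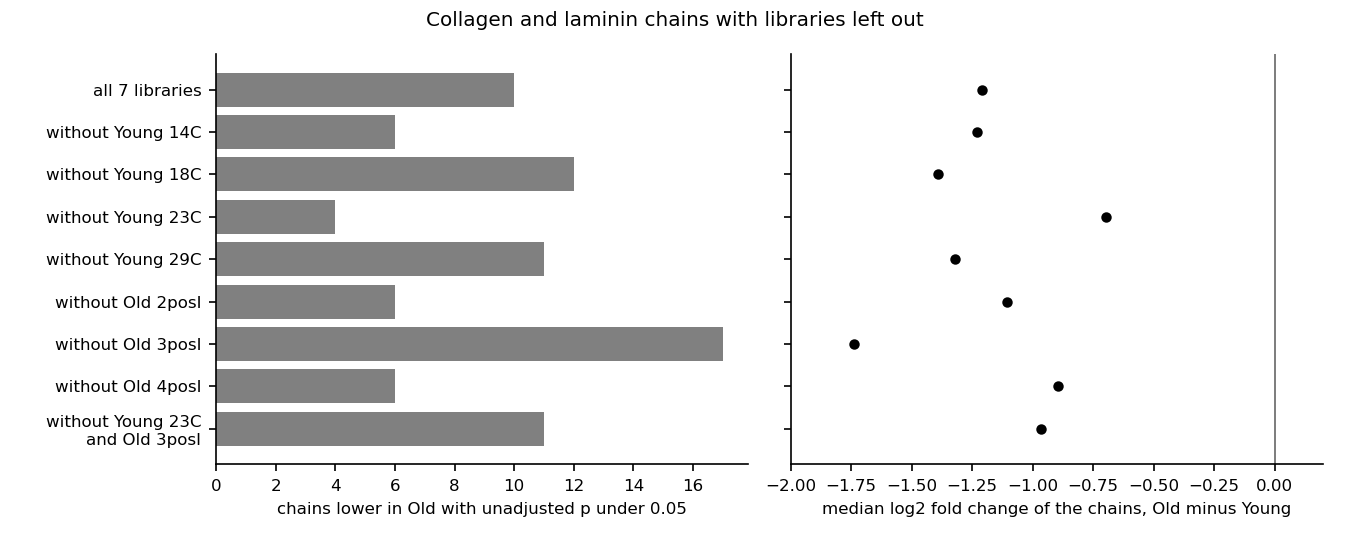
Number of chains lower in Old with an unadjusted p under 0.05 (left, bars) and the median log2 difference of the chains, Old minus Young (right, points, with 0 as a line), with all 7 libraries, with each library left out and with 23C and 3posI left out. The count is lowest without Young 23C, at 4, and highest without Old 3posI, at 17, and the median is below 0 in each case. Of all genes, 8.33% were lower at that level without 23C and 9.44% without 3posI.

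Markers of other cells were examined in the same libraries. The counts for these lists and for the matrix lists below stand beside 51.2% of all genes lower in Old. At an unadjusted p under 0.05 by edgeR, 8.79% of all genes were lower and 10.1% higher. Fibroblast markers summed to 27.0, 16.2, 98.7 and 27.5 CPM in Young and 13.2, 24.4 and 8.31 CPM in Old, which put 23C highest and 3posI highest of the Old libraries, as for collagens I and III. Of the 12, 9 were tested and 8 were lower in Old, 2 of them at an unadjusted p under 0.05, and none passed the adjusted threshold. Decorin (Dcn), a collagen-binding proteoglycan, was at 11.6, 6.85, 52.5 and 12.9 CPM in Young and 3.34, 10.4 and 3.22 CPM in Old, and lumican (Lum) at 3.57, 3.33, 19.9 and 5.44 CPM against 0.596, 3.32 and 0.540 CPM. Dpt had no count in any Young library, and Dpt, Mfap5 and Twist1 were below the count minimum.

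Endothelial markers summed to 250 to 319 CPM in Young and 167 to 228 CPM in Old, without overlap. Slc2a1 alone held 155 to 204 CPM of this sum in Young and 85.8 to 144 CPM in Old, and the lack of overlap rests on that gene. Of the 12, 11 were lower in Old, 5 at an unadjusted p under 0.05, and Slco1a4, a transporter of the blood-brain barrier, fell by 1.66 in log2 (edgeR adjusted p = 0.028). The 2 most abundant, Slc2a1 and Cldn5, had means of 183 and 37.6 CPM in Young and 117 and 20.5 CPM in Old. Pericyte and smooth muscle markers overlapped, at 49.2 to 111 CPM in Young and 50.8 to 69.2 CPM in Old, with 4 of 11 tested lower. Cspg4 and Rgs5 led that list, with means of 48.3 and 9.02 CPM in Young and 25.4 and 11.2 CPM in Old.

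Leukocyte markers summed to 8.61 to 104 CPM in Young and 68.7 to 579 CPM in Old, and all 11 tested were higher in Old, 7 at an unadjusted p under 0.05. By mean over all libraries Ccr2 and S100a8 were the most abundant, but their order differed by age, with S100a8 at 23.1 CPM above Ccr2 at 7.40 CPM in Young, and Ccr2 at 84.7 CPM and Ly6c2 at 62.4 CPM leading in Old. Ly6c2, chosen after its values were seen, did not overlap between ages (log2 difference 5.33, edgeR adjusted p = 0.0539). Border-associated macrophage markers, led by Ms4a7 and F13a1, summed to 156 to 492 CPM and 212 to 1608 CPM, with all 8 higher and 2 at an unadjusted p under 0.05. Astrocyte markers (118.6 to 164 CPM and 82.4 to 223 CPM), oligodendrocyte markers (52.2 to 64.4 CPM and 46.1 to 79.0 CPM), neuron markers (3.31 to 6.24 CPM and 2.40 to 6.38 CPM) and choroid plexus markers (98.7 to 257 CPM and 115 to 235 CPM) overlapped between ages. The most abundant of them were Slc1a3 and Gfap, Mbp and Mag, Rbfox3 and Map2, and Ttr and Kcnj13. The part of any of these cells in the collagen and laminin levels was not tested.

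**Figure D5:**
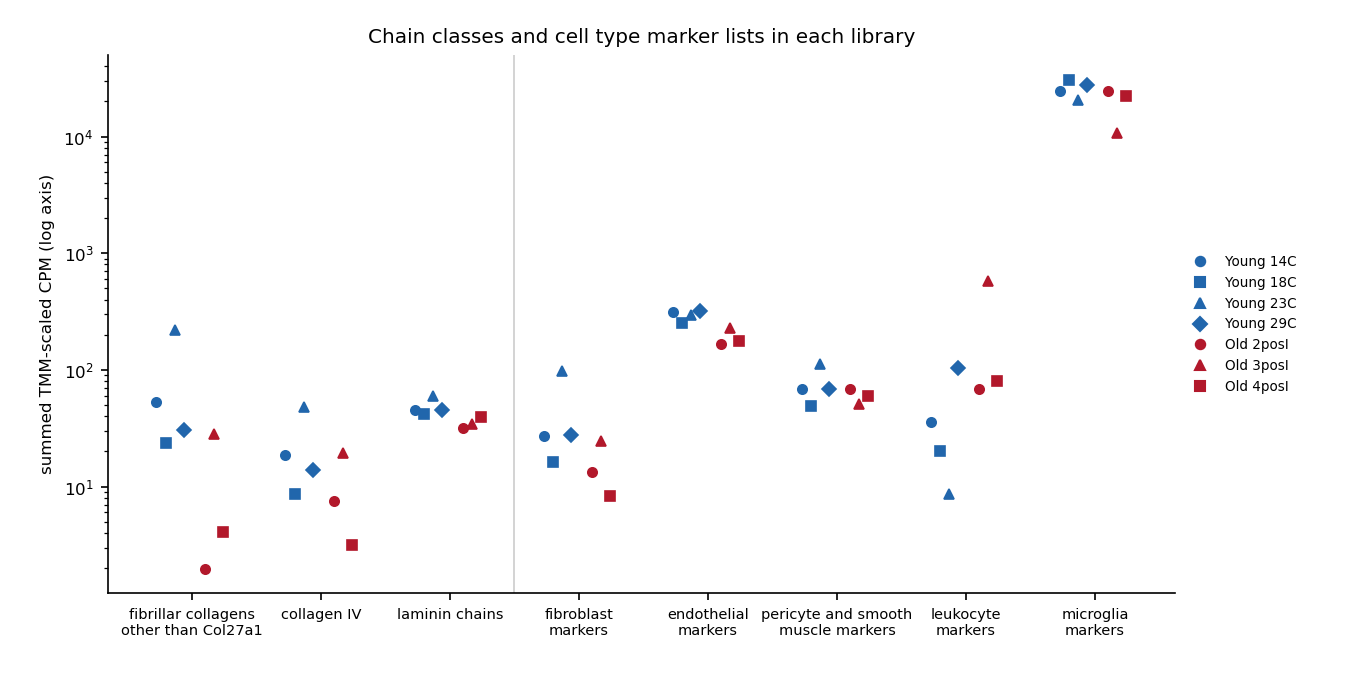
Summed TMM-scaled CPM in each library on a log axis, for 3 groups of chains (left of the line) and 5 marker lists (right of it), Young in blue and Old in red. Young 23C and Old 3posI (triangles) are the highest of their age for fibrillar collagens other than Col27a1, for collagen IV and for fibroblast markers, at 98.7 and 24.4 CPM, and 3posI is highest for leukocyte markers at 579 CPM and lowest for microglia markers.

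Genes that make and process collagen were next compared. Of 30 tested of 32 listed, 26 were lower in Old, 10 at an unadjusted p under 0.05 (8.79% of all genes) and none higher at that level. Bmp1, the protease that trims procollagen, passed the adjusted threshold. It measured 8.16, 9.15, 12.4 and 8.99 CPM in Young and 3.34, 3.19 and 4.92 CPM in Old, with a difference of -1.34 ± 0.24 (log2, SE, edgeR adjusted p = 0.0495). The calls of Bmp1 and Slco1a4 were lost without 14C, 18C, 29C or 2posI, since 0 genes of all tested passed as lower by edgeR in those fits, against 41 with every library. Plod1, a lysyl hydroxylase of collagen, measured 400 to 566 CPM in Young and 308 to 346 CPM in Old (log2 difference -0.57 ± 0.15 SE, adjusted p = 0.112 by edgeR).

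Of 12 tested other components of basement membranes, 11 were lower in Old and 2 had an unadjusted p under 0.05. The list summed to 115 to 141 CPM in Young and 48.4 to 91.7 CPM in Old, without overlap. Npnt alone held 74.1 to 91.6 CPM of this sum in Young and 26.8 to 70.3 CPM in Old (adjusted p = 0.294 by edgeR). Nid2, a nidogen that links laminin to collagen IV, measured 17.0, 18.7, 17.7 and 14.0 CPM in Young and 5.90, 5.37 and 10.1 CPM in Old (log2 difference -1.24 ± 0.24 SE, adjusted p = 0.0591 by edgeR), and was not raised in 23C. Smoc1, a calcium-binding protein of basement membranes, had a log2 difference of -1.53 ± 0.44 (SE, edgeR adjusted p = 0.131).

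Other fibril and interstitial matrix genes were lower in 13 of 18 tested, 4 at an unadjusted p under 0.05, with 2 higher at that level. Thbs2, a matricellular thrombospondin, measured 16.7, 13.7, 29.5 and 23.9 CPM in Young and 11.1, 8.10 and 8.92 CPM in Old (log2 difference -1.16 ± 0.28 SE, adjusted p = 0.0895 by edgeR). Tgfbi, which binds collagen and integrins, measured 95.4 to 206 CPM in Young and 188, 1218 and 180.1 CPM in 2posI, 3posI and 4posI (log2 difference 1.84, adjusted p = 0.19 by edgeR).

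Receptors showed no call at the adjusted threshold. Of all genes 51.2% were lower, and 8.79% were lower at an unadjusted p under 0.05 by edgeR. Of 10 tested collagen receptors 6 were lower, 1 at that level. That was Mrc2, the endocytic receptor for collagen, at 33.9 to 59.8 CPM in Young and 23.4, 12.5 and 30.7 CPM in Old (log2 difference -1.03 ± 0.33 SE, adjusted p = 0.155 by edgeR), followed by Itga1, a collagen-binding integrin chain (-1.07 ± 0.52 SE, adjusted p = 0.306 by edgeR). Of 7 laminin receptors 4 were lower, 2 at an unadjusted p under 0.05, and 2 were higher at that level. The list summed to 397 to 459 CPM in Young and 484 to 552 CPM in Old, higher without overlap. Most of this sum came from Rpsa (ribosomal protein SA) and Itga6, and the lack of overlap rests on them rather than on the whole list. Rpsa measured 191 to 224 CPM in Young and 235 to 271 CPM in Old. Bcam, a receptor for laminins with the alpha 5 chain, measured 2.71, 1.66, 3.10 and 3.51 CPM in Young and 0.954, 1.28 and 1.01 CPM in Old (log2 difference -1.34 ± 0.34 SE, adjusted p = 0.101 by edgeR), and Itga6, a laminin-binding integrin chain, 133 to 172 CPM in Young and 204 to 234 CPM in Old (0.46 ± 0.13 SE, adjusted p = 0.127 by edgeR).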

How the data were processed

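The authors used skewer for trimming, STAR for alignment (GRCm38) and RSEM for quantifying GENCODE m15 genes, without stated versions. They deposited expected counts without normalization, and TPM and FPKM values scaled within each library, 1 mouse per library. Expected counts were rounded and tested for genes above 10 in at least 1 library, without X, Y and M genes as in the authors' methods (17559 genes), with edgeR 4.0.16 (R 4.3.3), TMM factors, the quasi-likelihood test and age as the only term. Calls had a Benjamini-Hochberg adjusted p under 0.05. Deposited TPM served for levels between chains and ratios, with FPKM and CPM per effective length as alternatives. Coordinates and exons came from GENCODE vM21, in which 50462 of 50686 identifiers were found. Alternatives were limma-voom (limma 3.58.1), DESeq2 1.42.0, other scaling factors and filters, length and GC corrections (lowess span 0.3), and leaving out libraries. Members and gene lists were chosen with earlier results of these data known. The rule names chains whose mean reached 1 CPM in either age or whose unadjusted p was under 0.05, their partners, the 2 genes of each matrix list with the smallest p and the 2 most abundant genes of each marker list. No molecular identifiers are named, so counts may hold PCR copies, and p-values measure the spread between mice. The list of chains above the minimum in Young libraries only is not reported here.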

Additional observations from a re-analysis of the deposited data

Results flagged for a closer look

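In the Young group, 57 values (26 chains and 31 sums) were searched for a library far from the other 3, by Dixon's ratio of the gap to the range, and 11 exceeded the 95% critical value, where chance would give about 2.85. The chains were Col1a2 (0.880), Col3a1 (0.890), Lamc3 (0.928) and Col18a1 (0.976), with 23C the highest in each. Sums with 23C far above the others were those of fibrillar collagens (0.833), fibrillar collagens other than Col27a1 (0.853), laminin alpha chains (0.868), fibroblast markers (0.863) and oligodendrocyte markers (0.837). In 23C the sum of laminin receptors was far below the others (0.849), and the low library for choroid plexus markers was 29C (0.853). The values share genes and libraries, and the Old group, with 3 libraries, was not searched.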

How the results depend on the processing

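No paired analysis was possible because the age groups share no replicate numbers. Past adjusted p 0.05, where edgeR called 0 members lower and 0 higher, DESeq2 called 2 lower and 1 higher, and the fit without both 23C and 3posI 2 lower and 1 higher. With a single library left out, 0 were lower in each case and 0 to 1 higher. At an unadjusted p under 0.05 (10 lower, 2 higher), fitting without a filter gave 17 lower, leaving out a library 4 to 17 lower and 1 to 2 higher, and leaving out both 1 higher. Of all genes, 8.79% were lower at that level in the main fit, 6.69% without a filter and 6.1% to 10.8% with a library left out. The median log2 difference (-1.21) was between -1.74 and -0.70 with a library left out. Members whose ages did not overlap (6 lower, 1 higher) became 0 higher with upper-quartile factors, 6 to 18 lower and 1 to 3 higher with a library left out, and 18 lower and 2 higher without both. Of all genes, 9.07% were lower and 8.67% higher without overlap with every library, and 19.4% and 17.7% without both. Fewer libraries make overlap less likely in any gene, and the shares with a single library left out are not given here. Over all genes tested, 41 were called lower and 100 higher by edgeR, 655 and 748 by DESeq2, 131 and 157 without a filter, and 0 to 41 and 1 to 116 with a library left out. Genes called lower were 24 with the GC trend and 64 with the length trend removed, 82 with the effective-length offset and 65 with the minimum met in 3 libraries. Signs turned for 4 named chains. Col11a2 was 0.26 with the GC trend removed and -0.61 to 0.44 with a library left out. Col15a1 was 0.054 with the length trend and 0.041 with the GC trend removed, -0.38 to 0.30 with a library left out and 0.15 without both. Lama4 was -1.48 to 0.38 and Lamc1 -0.055 to 0.42 with a library left out, and Lamc1 -0.04 without both. The effective-length offset made some differences smaller, such as Col4a1 (-0.62) and Col9a3 (-0.13). Others became larger with it, such as Lamb2 (-1.07) and Lamc1 (0.70). The causes were not tested. With 3 and 4 mice, an exact two-sided permutation test of a single value can give no p below 0.0286, and chains under 1 CPM rest on few counts.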
